A study of Mus musculus with 6 samples.

Results

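The genes described here encode the enzymes of glycolysis and of the pentose phosphate pathway, together with ketohexokinase and a pair of lactate transporters, in the kidneys of mice with hyperuricemia-related chronic kidney disease. They were chosen by name, as 35 gene symbols looked up in the count table of 55450 genes through the GENCODE annotation. The rule uses no measured value, but the list was drawn up with earlier results of these data known. All 35 symbols were found, in 36 rows because Aldoa has a second gene identifier. That second row held 16 counts over all 6 mice and was not tested, and 35 rows, 1 for each symbol, passed the filter on low counts.

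Kidney mRNA was sequenced from 3 control mice, which the study's design equates with day 0, and from 3 mice on day 21 of a once-daily gavage of adenine (0.16 g/kg) with potassium oxonate (2.4 g/kg). Potassium oxonate blocks uricase, the enzyme that degrades urate in mice, and adenine is a purine whose oxidised product can crystallise in renal tubules. All animals were male C57BL/6J mice with no genetic change named, bought at 7 weeks of age and housed for 1 week before the study, and the control samples carry a label for a polyethylene glycol vehicle. Each library came from the kidney tissue of 1 mouse, so a lower count can reflect fewer cells of a type or less RNA per cell, and these cannot be told apart here.

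Glycolysis splits glucose into pyruvate, and lactate dehydrogenase can reduce that pyruvate to lactate for export. The pentose phosphate pathway branches from glucose 6-phosphate, where its oxidative arm makes NADPH and its non-oxidative arm exchanges sugars with glycolysis. In the kidney, the proximal tubule makes glucose, takes up fructose and burns mainly fatty acids and lactate, whereas distal segments and many immune cells make more use of glycolysis.

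Isozymes of the same step gave different values in several steps, and 12 of the 35 members were called. A gene was called when edgeR's quasi-likelihood test gave a Benjamini-Hochberg adjusted p below 0.05 and the fold change exceeded 1.5 in either direction. Of the 35 members, 3 were called higher on day 21 (8.57% of members, against 19.6% of all 16592 genes tested): Hk2, Hk3 and Slc16a3. Another 9 were called lower (25.7%, against 15.5% of all genes tested): Khk, Aldoc, Tpi1, Gapdh, Pfkfb2, Pgk1, Pfkm, Pgam2 and Pgam1. The other 23 were not called, and 19 of those had an adjusted p of 0.05 or more. The values of all 3 mice of one group lay beyond all 3 of the other in 17 of 35 members (48.6%), which is below the 57.1% among all genes tested. The median log2 fold change was -0.08 over the members and 0.03 over all genes tested, with a range from -1.85 for Khk to 3.71 for Hk2.

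**Figure D1:**
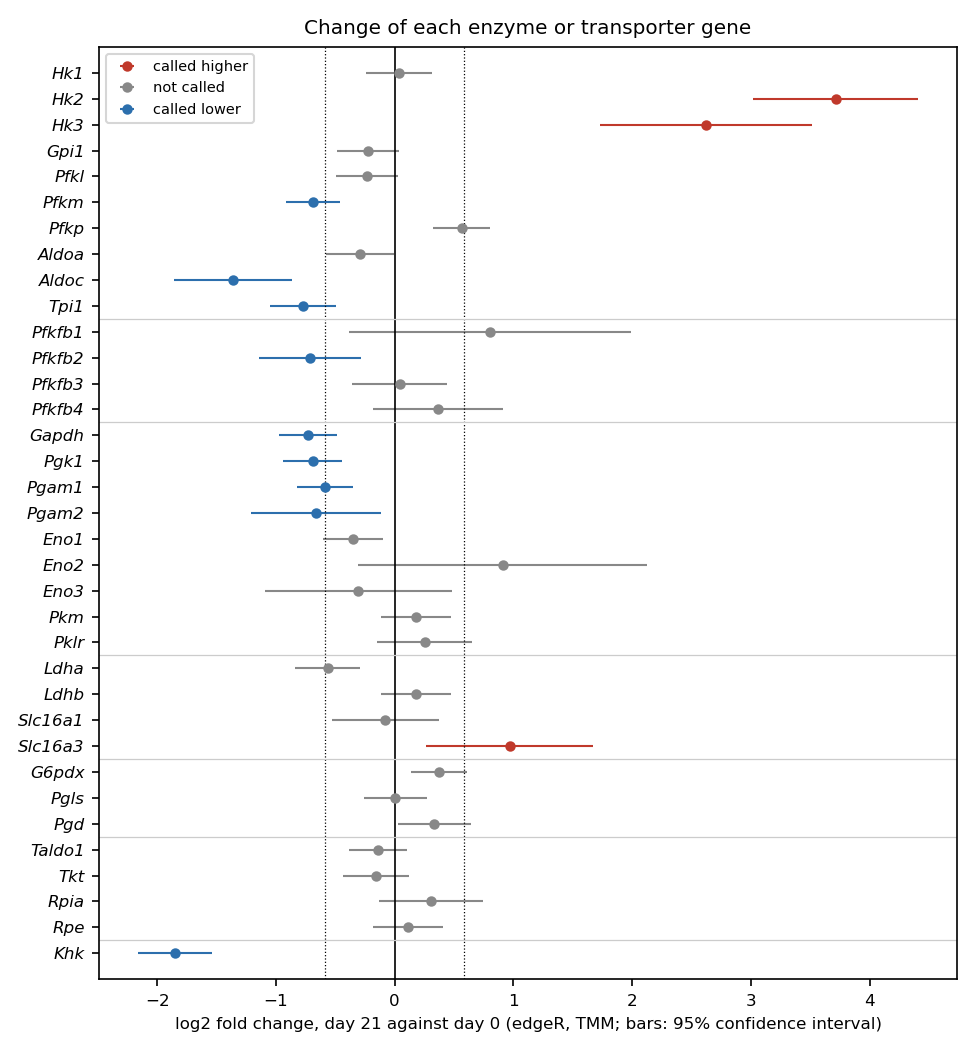
Log2 fold change of each of the 35 tested members on day 21 against day 0, with its 95% confidence interval, in the order of the pathway. Colours give the call, dotted lines mark a 1.5-fold change, and Hk2 (3.71) and Khk (-1.85) stand at the ends of the range.

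Of the 5 scalings tried, only total library size gave more higher than lower calls among the members. TMM gave 3 higher and 9 lower, relative log expression size factors 3 and 10, and upper-quartile scaling 4 and 7. Scaling to 13 genes often used as references in quantitative PCR gave 2 and 10. With total library size as the only scaling, 9 of 35 members were called higher and 2 lower, against 5985 and 1338 of all 16592 genes tested. The median of all genes then moved to 0.42 on the log2 scale and that of the members to 0.31. The distance between the members' median and the all-gene median hardly moved, from -0.12 to -0.11 over the 5 scalings tried. Hk2, Aldoc and Khk kept their calls under each of 18 alternatives, and Hk3 under each of the 17 in which it was tested. The falls of Tpi1, Gapdh, Pfkfb2, Pgk1 and Pfkm kept their sign under every alternative and lost their call with library size alone. The libraries held 10963849 to 14333311 counts. Mitochondrially encoded genes took 9.39% to 9.86% of counts on day 0 and 3.82% to 4.42% on day 21, and the 20 highest genes took 16.8% to 17.5% and 11.7% to 13.1%.

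Markers of several cell types moved with the groups. All 13 proximal tubule markers were called lower, and their summed level was 20895 to 22882 CPM, the read counts normalised to the TMM-scaled library size, on day 0 and 4508 to 5934 on day 21. All 10 macrophage markers were called higher, with a summed 168 to 219 CPM on day 0 and 1001 to 1320 on day 21. All 8 markers of injured tubule were called higher too, from a summed 729 to 1923 CPM to 20079 to 24053, as were all 8 of dividing cells, from 8.62 to 17.005 CPM to 139 to 191. All 8 fibroblast and pericyte markers and 7 of 8 T and NK cell markers were also called higher. Lower calls reached 4 of 6 markers of thick ascending limb (1 higher), 4 of 5 of distal convoluted tubule and 4 of 6 of intercalated cells. They also took in 3 of 7 of principal cells, 3 of 5 of podocytes and 2 of 7 of endothelium. Among all genes tested, 19.6% were called higher and 15.5% lower. The part of these shifts in the changes of the pathway genes was not tested.

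Hexokinase, which traps glucose in the cell as glucose 6-phosphate, carried the largest change of the pathway. Hk2, a mitochondria-bound hexokinase that is inducible in many tissues, read 1.60, 1.24 and 0.721 CPM in the 3 day 0 mice and 11.5, 19.3 and 16.4 CPM in the 3 day 21 mice. Every day 21 mouse was above every control. Its log2 fold change was 3.71 ± 0.31 (SE), a 13.1-fold rise, with an adjusted p of 1.05e-05 by edgeR's quasi-likelihood test. The gene lies on the minus strand of chromosome 6, from 82725025 to 82774454 in mm10. These levels rest on few reads, 16, 15 and 7 on day 0 against 163, 324 and 267 on day 21.

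Hk3, a hexokinase known from myeloid cells, read 0.602, 0.330 and 0.618 CPM on day 0 and 3.32, 3.58 and 2.63 CPM on day 21. The groups again did not overlap, and the log2 fold change was 2.62 ± 0.40 (SE, adjusted p = 4.47e-04). No day 0 mouse had more than 6 reads of Hk3. Macrophage markers rose alongside, Itgam among them, from a mean of 0.48 to 9.65 CPM. Of the neutrophil markers, Mpo and Elane had no count in any mouse, and 1 of the 5 tested was called higher and 2 lower, with a summed 15.8 to 25.9 CPM on day 0 and 12.0 to 13.2 on day 21.

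Hk1, the housekeeping hexokinase, read 164, 198 and 153 CPM on day 0 and 167, 193 and 169 CPM on day 21, and the groups overlapped. Its log2 fold change of 0.04 had a 95% confidence interval of -0.24 to 0.32. Per kilobase of exon, Hk1 made up 98.3% ± 0.47 (SD, n = 3) of the counts of the 3 hexokinases on day 0 and 85.6% ± 1.59 on day 21. The share of Hk2 went from 0.970% ± 0.358 to 10.8% ± 1.93, and that of Hk3 from 0.711% ± 0.289 to 3.57% ± 0.477. No share overlapped between the groups, and each gave p = 0.1 in a two-sided exact permutation test, the smallest that 3 mice against 3 allow. The summed level of the 3 genes was 20.5 CPM per kilobase on day 0 and 24.2 on day 21 (exact permutation p = 0.3), so Hk1 stayed the most abundant hexokinase transcript. The size of the share changes depended on the gene length used. They were -12.7, 9.85 and 2.86 percentage points for Hk1, Hk2 and Hk3 with merged exons, -7.53, 5.75 and 1.78 with the longest transcript, and -8.63, 7.31 and 1.32 with no length scaling.

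**Figure D2:**
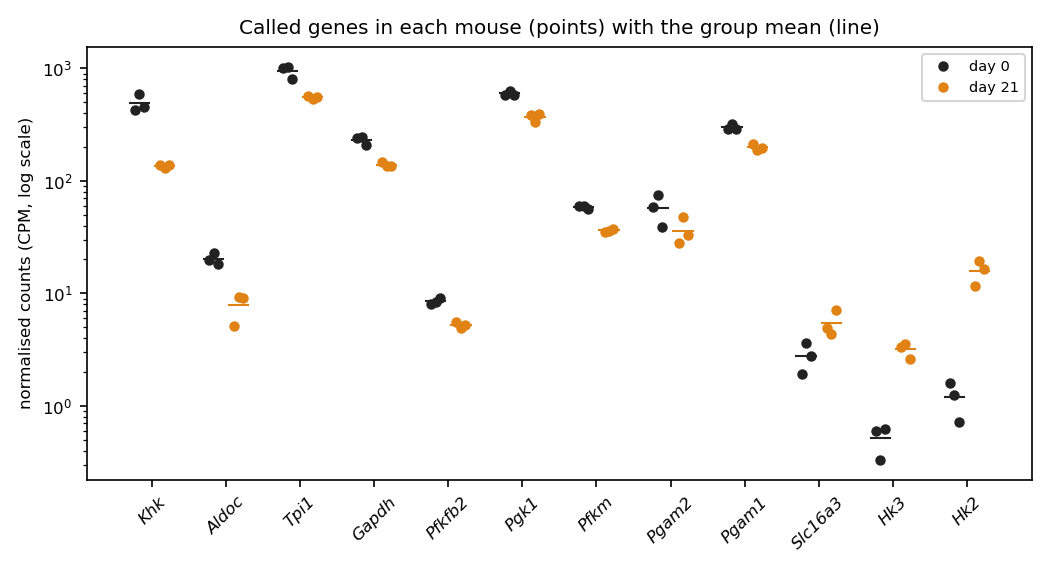
Normalised counts (CPM, log axis) of the 12 called members in each mouse, with a line at the group mean, ordered from the largest fall to the largest rise. The groups are apart for 11 of the 12 genes and overlap for Pgam2.

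Phosphofructokinase commits hexose to glycolysis, and its muscle-type and platelet-type genes moved apart. Pfkm, the muscle-type subunit, read 59.6, 59.8 and 55.8 CPM on day 0 and 35.3, 36.0 and 37.7 CPM on day 21, with every day 21 mouse lower. The log2 fold change was -0.69 ± 0.10 (SE, adjusted p = 3.97e-04). Pfkp, the platelet-type subunit, read 76.4, 81.9 and 83.6 CPM on day 0 and 108, 125 and 124 CPM on day 21. The groups did not overlap and the adjusted p was 0.0018, but the 1.48-fold difference stayed just inside the fold threshold. Pfkp passed it under 4 of 18 alternatives, at log2 fold changes of 0.63 without replicate 1 of day 21, 0.65 with upper-quartile scaling, 0.96 with library size alone and 0.59 among genes with a mean of at least 50 counts. Pfkl, the liver-type subunit, had a log2 fold change of -0.24 with an interval of -0.50 to 0.03.

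As shares of the 3 genes per kilobase of exon, Pfkm went from 47.7% ± 1.09 to 35.1% ± 0.89 and Pfkp from 16.4% ± 1.45 to 28.7% ± 1.16 (SD, n = 3). Both were apart in all mice, at the smallest exact permutation p of 0.1. The share of Pfkl was 35.9% on day 0 and 36.2% on day 21 (exact permutation p = 0.9). Such shares are ratios within a library and do not depend on its scaling, but they depend on the gene length. The change in the share of Pfkl was 0.31 percentage points with merged exons, -1.07 with the longest transcript and -6.20 with no length scaling. The changes of Pfkm and Pfkp kept their signs, at -9.93 and 16.1 with no length scaling.

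The bifunctional PFKFB enzymes set the level of fructose 2,6-bisphosphate, the main activator of phosphofructokinase. Pfkfb2 was the called member among the 4, at 8.12, 8.41 and 9.07 CPM on day 0 and 5.51, 4.89 and 5.21 CPM on day 21. All day 21 mice were lower, with a log2 fold change of -0.71 ± 0.19 (SE, adjusted p = 0.013). Gm29427 holds 26.1% of the 50-base stretches of the longest Pfkfb2 transcript. It is an overlapping gene model on the same strand, so counting could have split the reads. Pfkfb3 had a log2 fold change of 0.04 (interval -0.36 to 0.44). Pfkfb4 reached 0.37 and Pfkfb1 0.80, with adjusted p of 0.25 for both, and Pfkfb1 stayed between 0.309 and 1.90 CPM in all mice. Leaving out replicate 1 of day 0 raised Pfkfb4 to 0.64, past the call threshold.

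Gpi1, which interconverts glucose and fructose 6-phosphate, had a log2 fold change of -0.22 (interval -0.48 to 0.04). Aldolase then splits fructose 1,6-bisphosphate. Aldoc, the aldolase best known from brain, read 19.9, 22.7 and 18.1 CPM on day 0 and 5.16, 9.31 and 9.004 CPM on day 21. Every day 21 mouse was lower, and the log2 fold change was -1.36 ± 0.22 (SE, adjusted p = 6.90e-04). Aldoa, the ubiquitous form, read 1118, 1063 and 862 CPM on day 0 and 787, 856 and 842 CPM on day 21. Its highest day 21 mouse was just below its lowest control, and the log2 fold change of -0.29 was not called (adjusted p = 0.085).

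Tpi1, which interconverts the triose phosphates that aldolase releases, fell from 997, 1035 and 809 CPM on day 0 to 573, 532 and 557 CPM on day 21. The groups did not overlap (log2 fold change -0.77 ± 0.12, SE, adjusted p = 6.17e-04). Tpi1 lies on chromosome 6 from 124810586 to 124814296, and is among the 9 members above 100 CPM per kilobase on day 0. Of those 9, Tpi1, Khk, Pgk1 and Pgam1 were called lower and 0 were called higher. The other 5 were Ldhb, Aldoa, Ldha, Eno1 and Taldo1. These 9 were picked by their day 0 level, which enters the fold change, so the choice itself favours lower calls. The share called among all genes above that level was not computed.

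**Figure D3:**
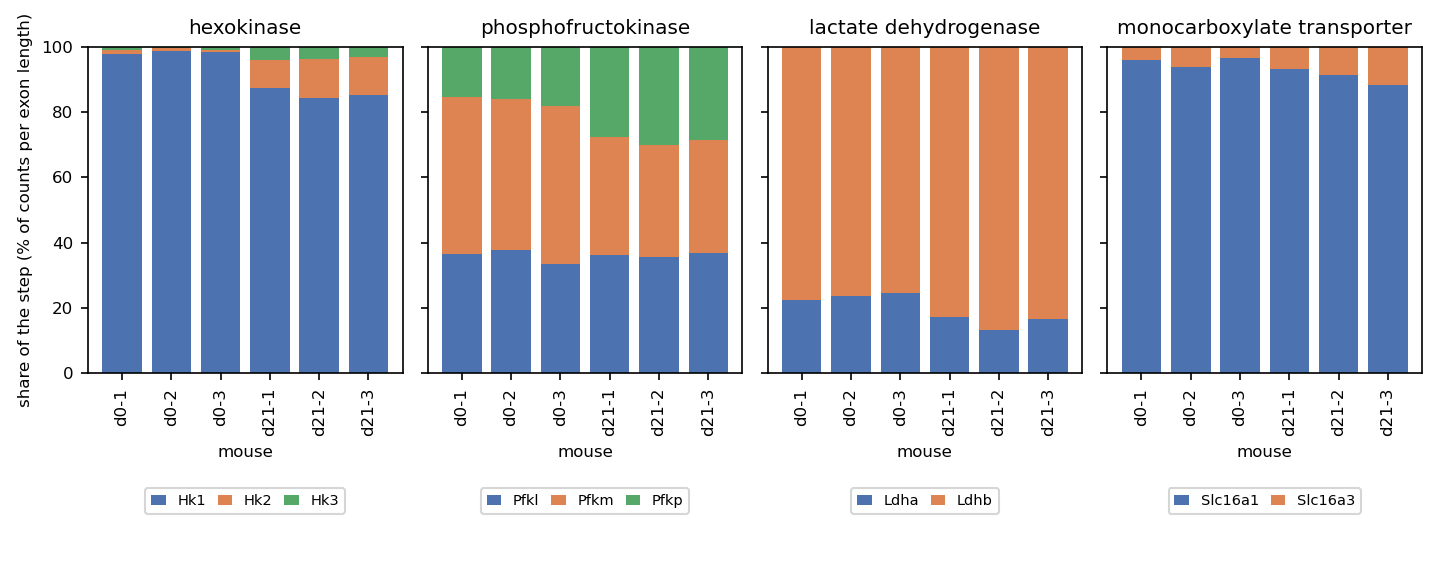
Share of each isozyme gene among the genes of its step, in percent of counts per exon length, for each mouse (d0, day 0; d21, day 21). Hk2, Pfkp, Ldhb and Slc16a3 took larger shares in all day 21 mice, whereas Hk1, Pfkm, Ldha and Slc16a1 took smaller ones.

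The genes of lower glycolysis from glyceraldehyde 3-phosphate to 2-phosphoglycerate were called lower on day 21. The enolase and pyruvate kinase genes were not called, though Eno1 also read lower in every day 21 mouse. Gapdh read 240, 246 and 210 CPM on day 0 and 148, 136 and 135 CPM on day 21. No day 21 mouse reached the lowest control, and the log2 fold change was -0.73 ± 0.11 (SE, adjusted p = 3.75e-04). Its sign held under all 18 alternatives, between -0.88 and -0.34, and its call was lost with library size alone. Pgk1, the first ATP-making enzyme of the pathway, read 585, 631 and 581 CPM on day 0 and 386, 332 and 394 CPM on day 21. The groups were again apart (log2 fold change -0.69 ± 0.11, SE, adjusted p = 6.87e-04).

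Pgam1, the widely expressed phosphoglycerate mutase, read 289, 318 and 289 CPM on day 0 and 214, 186 and 197 CPM on day 21. All day 21 mice were lower (log2 fold change -0.59 ± 0.11, SE, adjusted p = 0.0014). Its 1.501-fold fall barely passed the fold threshold and the call was lost under 8 of 18 alternatives. Replicate 2 of day 0, replicate 2 of day 21 and replicate 3 of day 21 were the mice without which it was lost, at log2 fold changes of -0.54, -0.54 and -0.58. Pgam2, the muscle form, read 58.3, 74.6 and 38.9 CPM on day 0 and 27.9, 47.9 and 32.8 CPM on day 21. Here 1 day 21 mouse lay above the lowest control, and the log2 fold change of -0.66 ± 0.25 (SE) had an adjusted p of 0.049. The call of Pgam2 was lost without replicate 1 or 2 of day 0 and without replicate 1 or 3 of day 21, at adjusted p of 0.072, 0.21, 0.16 and 0.14. Of 10 skeletal muscle markers, Myh2, Myh4 and Tnnc2 had no count in any mouse, and 8 were at or under 3 counts in every control. Their summed level was 4.71 to 6.51 CPM on day 0 and 7.16 to 8.34 on day 21, and 1 of the 2 tested was called higher.

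Eno1, the main enolase, read 737, 820 and 664 CPM on day 0 and 586, 569 and 586 CPM on day 21. The groups were apart and the adjusted p was 0.030, but the log2 fold change of -0.35 was within the fold threshold. Eno1 made up 98.2% ± 0.968 of enolase counts per kilobase on day 0 and 97.8% ± 0.229 on day 21 (SD, n = 3). The muscle enolase Eno3 had a log2 fold change of -0.31 with a wide interval of -1.09 to 0.48. Eno2, the neuronal enolase, read 4.31, 0.907 and 0.824 CPM on day 0 and 3.68, 3.04 and 4.53 CPM on day 21. Replicate 1 of day 0 was the mouse that overlapped the day 21 group. With it the log2 fold change was 0.91 (adjusted p = 0.20), and without it 2.08 (adjusted p = 0.0021).

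Pyruvate kinase yields pyruvate and ATP. Pkm, whose M1 and M2 splice forms a gene count does not separate, read 316, 354 and 255 CPM on day 0 and 328, 357 and 364 CPM on day 21. The groups overlapped, and the log2 fold change of 0.18 had an interval of -0.11 to 0.48. Pklr, the liver and red cell form, had a log2 fold change of 0.25 (interval -0.15 to 0.65), while 6 of 7 erythroid markers tested were called lower and 1 higher. The exons of Pklr overlap those of Hcn3 on the opposite strand over 22.0% of their length, and the strand setting of the counting is not given in the sources used here. The share of Pkm in the step was 84.9% on day 0 and 84.2% on day 21 (exact permutation p = 1.0).

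Lactate dehydrogenase shifted from its A gene towards its B gene at an almost equal summed level. Ldha, whose subunit favours lactate formation in the textbook account, read 883, 982 and 816 CPM on day 0 and 638, 540 and 635 CPM on day 21. All day 21 mice were lower, with an adjusted p of 0.0039. The 1.48-fold difference was just inside the fold threshold (log2 fold change -0.56 ± 0.12, SE), and Ldha was called under 7 of 18 alternatives. Those included DESeq2 and the removal of replicate 1 or 3 of either group. Ldhb, the heart-type subunit, read 1440, 1511 and 1183 CPM on day 0 and 1464, 1697 and 1522 CPM on day 21. Those groups overlapped, and the log2 fold change was 0.18 (interval -0.11 to 0.47).

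Ldhb was the most abundant member in both groups, at 878 CPM per kilobase on day 0 and 994 on day 21. The share of Ldha among the counts of both genes per kilobase was 22.5%, 23.6% and 24.7% on day 0 and 17.1%, 13.1% and 16.5% on day 21. These values did not overlap, with p = 0.1 in the exact permutation test. The summed level on day 21 was 1.03 times that of day 0 (exact permutation p = 0.9).

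Lactate leaves cells through monocarboxylate transporters. Slc16a3, the MCT4 gene of highly glycolytic cells, read 1.91, 3.63 and 2.78 CPM on day 0 and 4.95, 4.36 and 7.11 CPM on day 21. All day 21 mice were above all controls, with a log2 fold change of 0.97 ± 0.32 (SE, adjusted p = 0.030). The call was lost without replicate 1 or 3 of day 0, at adjusted p of 0.088 and 0.063, and without replicate 1 or 3 of day 21, at 0.052 and 0.14. Slc16a1, the MCT1 gene, ranged from 37.5 to 65.3 CPM on day 0 and from 39.2 to 56.9 CPM on day 21, and its log2 fold change was -0.08 (interval -0.53 to 0.37). Per kilobase, Slc16a3 was 4.55% ± 1.43 of the counts of the pair on day 0 and 8.95% ± 2.47 on day 21 (SD, n = 3, exact permutation p = 0.1).

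Of the 7 pentose phosphate genes, 0 were called by edgeR's quasi-likelihood test with TMM scaling, by DESeq2 or by limma-voom, and 2 (G6pdx and Pgd) had an unadjusted p below 0.05. Among all genes tested, 19.6% were called higher and 15.5% lower. Their log2 fold changes lay between -0.16 for Tkt and 0.37 for G6pdx. G6pdx, the gate to the oxidative arm and its first source of NADPH, read 49.3, 49.9 and 43.8 CPM on day 0 and 64.0, 60.4 and 60.9 CPM on day 21. Every day 21 mouse was above every control, and the adjusted p was 0.015 for a 1.30-fold difference. Pgd, the second source of NADPH, read 168, 142 and 117 CPM on day 0 and 192, 166 and 180 CPM on day 21, with overlap, and its log2 fold change was 0.33 (adjusted p = 0.072). Pgls, which opens the lactone between them, stood at 0.01 (interval -0.26 to 0.27).

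In the non-oxidative arm, Rpia and Rpe convert ribulose 5-phosphate, and had log2 fold changes of 0.31 and 0.11 (adjusted p = 0.23 and 0.52). Taldo1 and Tkt, the transaldolase and transketolase, stood at -0.14 and -0.16 (adjusted p = 0.32 and 0.34). The intervals of Tkt and Taldo1, -0.44 to 0.12 and -0.38 to 0.10, exclude a 1.5-fold change in either direction. So do those of Rpe, -0.18 to 0.41, and of Pgls in the oxidative arm, -0.26 to 0.27. The intervals of Rpia, G6pdx and Pgd do not, with upper ends of 0.75, 0.61 and 0.64. With library size alone, G6pdx, Pgd and Rpia were called higher, at log2 fold changes of 0.76, 0.72 and 0.70, on a scale where the median gene stood at 0.42.

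Khk, ketohexokinase, brings fructose into the pathway below phosphofructokinase and had the largest fall of all members. It read 427, 592 and 453 CPM on day 0 and 140, 131 and 137 CPM on day 21. The groups were far apart, and the log2 fold change was -1.85 ± 0.14 (SE), a 3.61-fold fall with an adjusted p of 5.67e-06. The gene lies on the plus strand of chromosome 5 from 30921431 to 30931248, and its A and C splice forms were not separated. Other genes of fructose and polyol handling were called lower in 5 of 9 and higher in 0 of 9. They included Sord, the sorbitol dehydrogenase that makes fructose, at a log2 fold change of -1.99, and Tkfc, which phosphorylates the glyceraldehyde from fructose, at -1.40. Slc2a5, the fructose transporter GLUT5, stood at -1.76 with adjusted p of 8.06e-06.

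The upstream sequences of some of these genes are shown because the ACGTG core, the letters within which hypoxia-inducible factors and, as CACGTG, Myc and ChREBP bind, was more frequent among the members than among all genes. RefSeq windows of 300 bases on GRCm38.p6, reaching from 250 before to 50 after a start site, were available for all 35 members. ACGTG occurred on either strand in a window of 17 of 35 members (48.6%), against 21.8% of 27025 genes. Those 27025 genes, the background for every motif here, were not limited to genes tested for expression, whereas all 35 members were tested. By call, it was found in 3 of 3 members called higher, 7 of 9 called lower and 7 of 23 not called. Shares by call over all genes were not computed, so a link between the motif and the calls was not tested. Counted by window, it was in 38.9% of the 54 windows of members and 19.6% of all 32851. Tpi1 and Pgam2, both called lower, had no match, and the matches of Gapdh and Aldoc, also called lower, lay only after the start site. These genes are not among those printed. The 250 bases before the start follow for Hk2 and Slc16a3 among the 3 called higher and for Khk and Pgk1 among those called lower. The pair Ldha and Ldhb is shown as well, with ACGTG or its complement in capitals throughout. For genes with several windows the one with most matches is shown. They run 5′ to 3′ on the strand of the gene.
Hk2: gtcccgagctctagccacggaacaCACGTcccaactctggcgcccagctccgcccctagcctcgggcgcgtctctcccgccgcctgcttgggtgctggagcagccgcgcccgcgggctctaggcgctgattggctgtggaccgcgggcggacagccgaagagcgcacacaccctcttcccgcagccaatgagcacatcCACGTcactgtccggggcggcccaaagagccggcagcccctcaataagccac
Slc16a3: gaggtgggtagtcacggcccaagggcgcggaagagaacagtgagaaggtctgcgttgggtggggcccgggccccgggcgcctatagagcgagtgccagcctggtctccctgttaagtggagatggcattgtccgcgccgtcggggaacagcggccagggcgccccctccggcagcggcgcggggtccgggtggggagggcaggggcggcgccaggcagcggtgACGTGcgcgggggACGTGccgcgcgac
Khk: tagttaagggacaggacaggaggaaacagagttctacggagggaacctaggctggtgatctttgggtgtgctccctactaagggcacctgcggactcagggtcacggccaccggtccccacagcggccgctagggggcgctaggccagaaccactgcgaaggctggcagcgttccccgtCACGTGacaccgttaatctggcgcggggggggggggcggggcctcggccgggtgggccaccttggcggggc
Pgk1: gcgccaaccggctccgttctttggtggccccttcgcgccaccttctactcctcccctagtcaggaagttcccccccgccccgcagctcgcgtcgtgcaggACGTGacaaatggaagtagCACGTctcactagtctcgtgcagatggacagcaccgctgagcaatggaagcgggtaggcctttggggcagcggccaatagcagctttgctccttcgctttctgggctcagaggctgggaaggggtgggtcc
Ldha: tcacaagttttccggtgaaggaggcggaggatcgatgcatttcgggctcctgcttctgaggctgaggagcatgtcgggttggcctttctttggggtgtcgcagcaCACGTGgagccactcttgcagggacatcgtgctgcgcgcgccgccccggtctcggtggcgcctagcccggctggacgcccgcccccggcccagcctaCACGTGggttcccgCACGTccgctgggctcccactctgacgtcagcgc
Ldhb: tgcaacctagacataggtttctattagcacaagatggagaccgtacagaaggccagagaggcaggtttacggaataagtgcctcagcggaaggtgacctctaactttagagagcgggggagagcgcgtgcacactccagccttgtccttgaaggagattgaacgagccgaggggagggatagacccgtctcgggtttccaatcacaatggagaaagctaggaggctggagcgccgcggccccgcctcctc
In GRCm38.p6 these stretches are chr6:82774455-82774704 (minus strand) for Hk2, chr11:120948817-120949066 (plus strand) for Slc16a3, chr5:30921309-30921558 (plus strand) for Khk, chrX:106186850-106187099 (plus strand) for Pgk1, chr7:46845554-46845803 (plus strand) for Ldha and chr6:142507958-142508207 (minus strand) for Ldhb. Hk2, Slc16a3 and Pgk1 each hold 2 separate matches. Khk holds 1 CACGTG, which reads as ACGTG on both strands, and Ldha holds 2 CACGTG and a further ACGTG. Ldhb holds 0 matches. A match of these letters is no evidence of binding.

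The other motifs searched on both strands were CACGTG, which contains ACGTG and was in windows of 17.1% of members against 8.09% of all genes, and the antioxidant response core TGACNNNGC, at 17.1% against 14.0%. The GC box GGGCGG was in 74.3% of members against 38.2% of genes, and the TATA box TATAAA in 8.57% against 15.7%. Of the regulators that use such sites, Myc rose by a log2 fold change of 1.46 ± 0.18 (SE, adjusted p = 1.08e-04). Hif1a stood at 0.17 (adjusted p = 0.24) and Nfe2l2, the NRF2 gene, at 0.27 (adjusted p = 0.077). Epas1, the HIF-2α gene, stood at -0.73 and Mlxipl, the ChREBP gene, at -0.80, both called lower. Over the 16 regulators listed, 2 were called higher and 7 lower, with Hnf4a, a master regulator of proximal tubule genes, at the lowest value of -1.28, and Trp53 called higher beside Myc at 1.08. Hnf4a and Txnip had the highest levels per kilobase of that list.

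Among 14 hypoxia-inducible genes outside glycolysis, 1 was called higher and 7 lower, with a median log2 fold change of -0.61. The background for this list and for the regulators is the 19.6% called higher and 15.5% called lower among all genes tested. Ddit4, a stress-induced inhibitor of mTORC1, was the one called higher, at 0.72. Car9, a carbonic anhydrase, had the lowest value, -1.83, and Vegfa stood at -1.15. The most abundant genes per kilobase were Ndrg1, at -0.92, and Bnip3, a mitophagy receptor, at -1.03.

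Many genes around the pathway were lower on day 21. Of 76 other genes listed for it, 68 were tested, of which 6 were called higher and 36 lower, with a median log2 fold change of -0.73. Among all genes tested, 19.6% were called higher and 15.5% lower, the background for this list and each of its parts. The list was drawn up with earlier results of these data known. Gluconeogenesis, which runs glycolysis backwards in the proximal tubule, had 5 of 8 called lower and 1 higher. Pck1, which makes phosphoenolpyruvate, had the lowest value at -2.69 ± 0.34 (SE, adjusted p = 1.39e-04), and it had the highest level on day 0, ahead of Fbp1 at -1.95. G6pc, which releases free glucose, stood at -2.49. Pck2, the mitochondrial form of Pck1, was the one called higher, at 1.33. Fbp2 was not called, at 0.54.

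Hexose transport and phosphorylation had 5 of 11 called lower and 2 higher. Hkdc1, a hexokinase-like gene, had the largest rise of these, 1.42, from 0.419 to 1.13 CPM per kilobase. Slc2a1, the GLUT1 transporter, rose by a log2 fold change of 0.59 ± 0.11 (SE, adjusted p = 0.0021). Slc5a2, the SGLT2 glucose transporter of the proximal tubule, stood at -1.71 and Galm, the mutarotase, at -1.14. Slc5a2 and Galm had the highest levels of the list per kilobase, and Slc5a2 is also among the proximal tubule markers, as is Slc5a12.

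The list of other isozymes and side reactions had 7 of 17 called lower and 2 higher. Gpd1, which diverts triose phosphate to glycerol 3-phosphate, had the lowest value, -1.81. Pgm2, a phosphoglucomutase, rose by 1.04, and Pygb, the brain-type glycogen phosphorylase, by 0.91. Ldhd, the D-lactate dehydrogenase, was among the most abundant genes of this list, at -1.39.

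Pyruvate and lactate handling had 13 of 18 called lower and 1 higher, the highest count of lower calls among the lists other than cell type markers. Slc16a4, a monocarboxylate transporter, had the lowest value at -2.46, and Emb, a partner protein of such transporters, was the one called higher at 0.71. Slc5a8 and Slc5a12, which take lactate up from the urine, stood at -2.27 and -1.42. The mitochondrial pyruvate carrier gene Mpc1 stood at -1.26 and the pyruvate dehydrogenase gene Pdha1 at -0.95. Bsg, the partner of MCT1 and MCT4 and the most abundant gene of the list, was not called at -0.42. Neighbours of the pentose phosphate pathway had 1 of 5 called lower and 0 higher. Dera, the deoxyribose-phosphate aldolase, was at -0.77, while H6pd, the oxidative enzyme of the endoplasmic reticulum, was at 0.05 (adjusted p = 0.83).

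**Figure D4:**
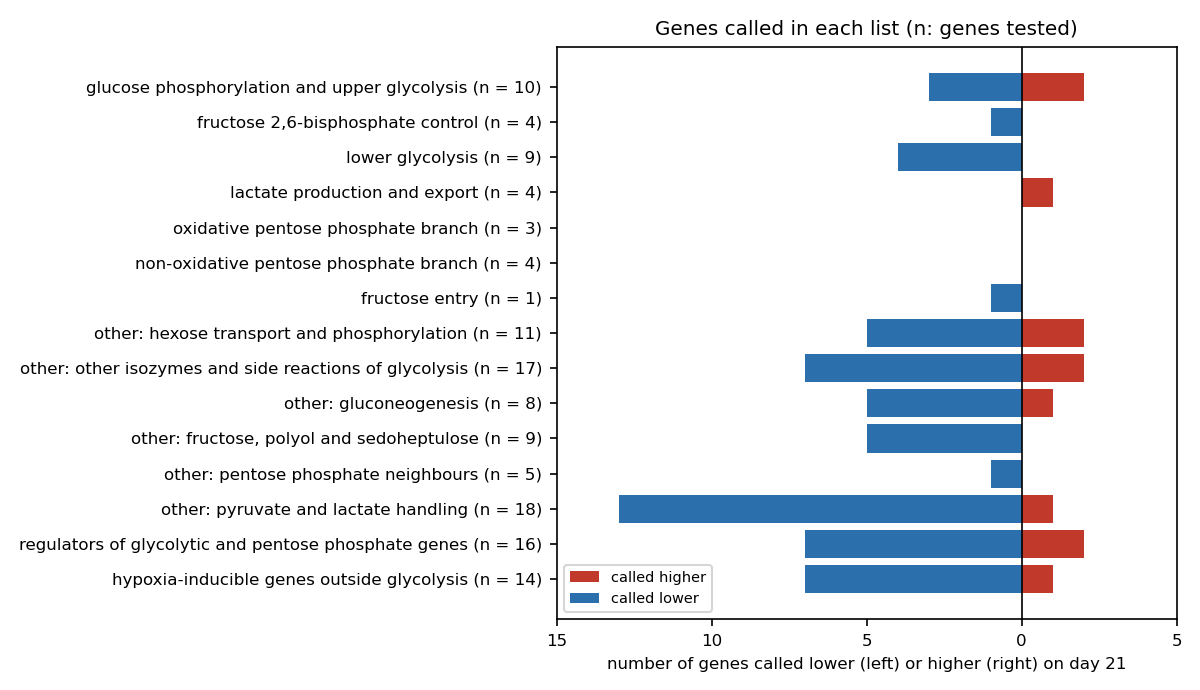
Number of genes called lower (left, blue) or higher (right, red) on day 21 in each list, with the number tested in brackets. Lists named "other" hold genes outside the 35 members, and the longest bar is that of pyruvate and lactate handling with 13 of 18 called lower.

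Gapdh and Pgk1 also serve as reference genes in quantitative PCR, and the study's own PCR was normalised to Gapdh. Set beside 13 other genes used for that purpose, of which 4 were called higher, 2 lower and 7 not, Gapdh had the third lowest value. B2m, the light chain of MHC class I, stood at 2.07 and Actb, the cytoskeletal actin, at 0.76, whereas Sdha of the mitochondrial respiratory chain stood at -1.25 and Tfrc at -0.84. Tbp, Ppia and Ywhaz had log2 fold changes of -0.04, -0.08 and -0.15 (adjusted p = 0.82, 0.59 and 0.38). Scaled to the 13 other genes, Gapdh stood at -0.88 and the median of all genes at -0.12. Of the longest Gapdh transcript, 27.8% of 50-base words recur among 218 other genes. That transcript model has 1 exon, and the share for the spliced mRNA was not measured.

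**Figure D5:**
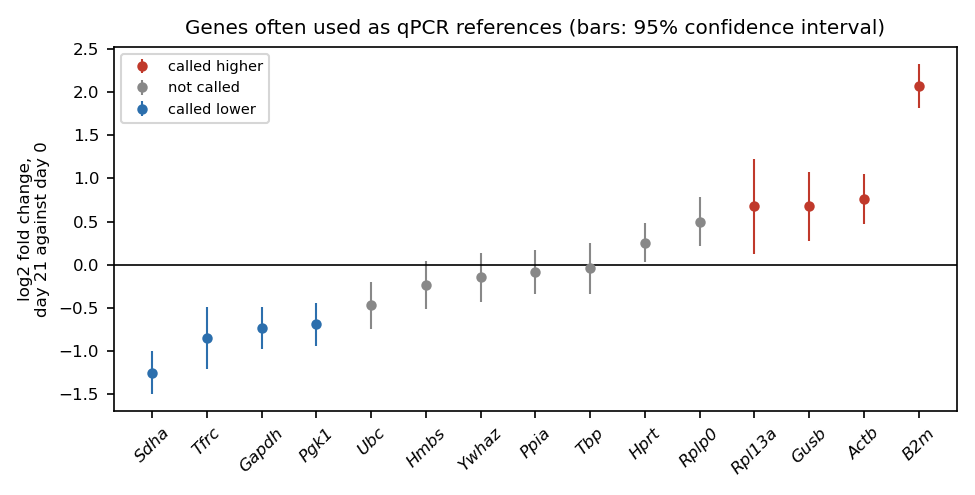
Log2 fold change on day 21 against day 0, with 95% confidence interval, of 15 genes often used as references in quantitative PCR, ordered from the lowest to the highest. Sdha (-1.25) and B2m (2.07) are the ends of the range, and Gapdh (-0.73) and Pgk1 (-0.69) are the glycolytic members.

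Several members share sequence with near copies elsewhere in the genome, which can affect how reads were assigned. More than 10% of the 50-base words of the longest transcript recurred in another gene for 14 of the 35 members, up to 72.2% for Eno1, 68.0% for Pgk1 and 41.5% for Pgam1. Hk2, Hk3, Khk, Aldoc, Pfkm, Pgam2 and Slc16a3 shared 0. The merged exons of Pfkm, however, overlap those of Gm26513, a gene model on the same strand, over 341 bases or 10.2% of their length. The reads assigned to copies that carry a member's name or a known related name were few, at most 2.08% of the parent's counts for Eno1b against Eno1. Copies under other names, such as Gm7336 for Gapdh and Gm4735 for Eno1, were not counted. How reads matching several places were handled is not given in the sources used here. Adding the counted copies to their parents left 3 members called higher and 8 lower, since Pgam1 then missed the fold threshold at -0.58.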

How the data were processed

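Kidney RNA from 6 mice, 3 per group, was prepared with a TruSeq kit and sequenced as paired 150-base reads. The authors deposited raw counts per gene, each mouse separate. Their processing notes list TopHat and mm10. The counting program and its strand setting are not given in the sources used here. Identifiers matched GENCODE release 21. No column was left unmapped.

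Counts were filtered with filterByExpr (minimum count 10, total 15), scaled by TMM and tested with edgeR 4.0.16 in R 4.3.3 on group alone (quasi-likelihood, Benjamini-Hochberg over all genes tested). The standard error is the log2 fold change divided by the square root of F. CPM are TMM-scaled, and levels are compared between genes only per kilobase of merged exon. Shares were compared with two-sided exact permutation tests. Libraries held 10963849 to 14333311 counts, so 3 counts, the floor used, equal 0.179 to 0.309 CPM. The scripts were tested on simulated data. DESeq2 1.42.0 and limma 3.58.1 were alternatives. Replicates are separate mice, and no pair of libraries agreed within sampling noise (chi-square per gene 7.17 to 25.7). The members and lists were chosen with earlier results of these data known. All members are described by role, with values per mouse for every called member, and for uncalled members chosen after their values were seen. From each other list the text names the called gene with the largest rise, the largest fall and the highest levels per kilobase. Other genes in the text (such as Pdha1, Mpc1, Tkfc and Hif1a) were chosen after their values were seen. Motifs were counted with Python 3.11.15. The number of biological replicates limits precision. The values of 1 gene of the other lists are not reported here.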

Additional observations from a re-analysis of the deposited data

How the results depend on the processing

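Of the 12 called members, 4 (Hk2, Hk3, Aldoc and Khk) held under every alternative run for them and 9 lost their call at most with library size alone. No called member changed sign. The counts of 3 higher and 9 lower became 9 and 2 with library size alone, and 5 and 11 at any fold. At an adjusted p below 0.01 with a fold over 2 they were 2 and 2. All-gene counts at these other thresholds are not given here. Over all genes tested, 3249 higher and 2572 lower became 5985 and 1338 with library size alone. Leaving out a mouse gave 2 to 4 members higher and 7 to 10 lower, against 2844 to 3242 and 2283 to 2708 of all genes tested. DESeq2 gave 3 and 10 (all genes 3055 and 2741), and limma-voom 3 and 9 (all genes 3296 and 2538). The median of the members turned to 0.0056 with upper-quartile scaling and to 0.31 with library size alone, as did Slc16a1 (0.0056 and 0.31). With library size alone Pfkl (0.16), Tkt (0.23), Taldo1 (0.25), Aldoa (0.099), Gpi1 (0.17), Eno3 (0.079) and Eno1 (0.041) also turned positive. None of these had been called. Pgls turned to -0.028 with relative log expression (RLE) size factors and with DESeq2. Scaled to 13 reference genes, an alternative chosen after seeing the data, Rpe (-0.045), Pfkfb3 (-0.12), Pgls (-0.14) and Hk1 (-0.11) turned negative. With that scaling 2 members were called higher and 10 lower, against 2575 and 3335 of all genes tested. With a mouse left out, Pgls ranged from -0.076 to 0.096, Hk1 ranged from -0.058 to 0.15, Eno3 ranged from -0.52 to 0.11, Slc16a1 ranged from -0.26 to 0.15, Pfkfb3 ranged from -0.15 to 0.20, each crossing 0.

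Replicate numbers were shared between groups, but mice of the same number did not deviate together (correlations -0.026, 0.17 and 0.098), so they were not taken as pairs. A fit with the replicate block called 3 members higher and 9 lower, against 3235 and 2523 of all genes tested. The members' median log2 fold change was then -0.063. Low counts limit Hk2, Hk3, Eno2, Pfkfb1 and Slc16a3. Intervals are for the difference between groups of 3 mice. Their width rests on the variation between mice, with a variance drawn partly from all genes tested. They do not give the range of single mice.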
